A study of Saccharomyces cerevisiae with 6 samples.

Results

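The genes described here are 10 genes of thiamine (vitamin B1) synthesis, uptake and regulation in the budding yeast Saccharomyces cerevisiae: THI4, THI5, THI6, THI20, THI21, THI22, THI7, THI2, THI3 and PHO3. They were chosen by gene symbol in the annotation of the array (THI7 also under its older symbol THI10). The rule used no measured value, but the set was put together with earlier results of these data known. All 10 of the 10 listed genes were measured, each by 1 probe, among 6345 features of which 5650 were named genes. Transcript levels were compared between 3 cultures with 6.5% (v/v) ethanol in the medium and 3 cultures with 0% ethanol, the question of the study being the effect of ethanol stress on gene expression. All 6 cultures were of the haploid MATa laboratory strain W303-1A, whose labelled alleles are ade2-1, can1-100, his3-11, 15, leu2-3, 122, trp1-1 and ura3-1. Both groups were started from a single unstressed parent culture in late exponential phase and grown in YEPD, a rich medium with yeast extract, peptone and glucose, at 30 °C and 110 rpm. How long the cells were in ethanol, and at what density they were harvested, is not stated in the labels. Each culture was hybridised on 1 array with 2 dyes against pooled RNA from the 3 cultures that had no ethanol, and the dyes were swapped for culture 1 of each group.

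Thiamine diphosphate is the cofactor of pyruvate decarboxylase, transketolase and several other enzymes of central metabolism, so fermenting yeast depends on it. Yeast makes the vitamin by joining a thiazole ring and a pyrimidine ring that are built separately, and it also imports thiamine from the medium, after a periplasmic phosphatase has removed any phosphate. When thiamine is plentiful the THI genes and PHO3 are repressed. When it is scarce they are activated through the regulators Thi2, Thi3 and Pdc2, with Thi3 sensing the bound cofactor. The labels do not give the thiamine content of the medium.

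Each value is a log2 ratio of a culture to the pool, so that 1 unit is a 2-fold difference. The ratio was read as the red over the green channel. The labels do not state this order. It is the usual one, and the stress genes HSP12 and HSP26 then read higher in ethanol, though their values are not given here. With the channels the other way round each sign given below would turn. Because each value is a ratio of 2 channels, the values give no absolute level and cannot show whether a gene was expressed at all. No probe's ratio says how abundant its transcript was. Probe brightness and background were not used here. The arrays differed by dye orientation: culture 1 with ethanol correlated at r = −0.06 and −0.10 across features with ethanol cultures 2 and 3, which correlated at 0.85 with each other, and a dye term was called for 34% of all features. Dye orientation was therefore a term in the limma fit, which gave each change as 6.5% minus 0% ethanol with its SE (n = 3 arrays per group). A gene was called at an adjusted p (Benjamini-Hochberg, over all 6345 features) below 0.05. Genes are not independent replicates, and the number of arrays limits the precision of every value below.

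Among the 10 thiamine genes THI4, THI5 and THI2 rose with ethanol, PHO3 fell, and the other 6 were not called. THI4 is the thiazole synthase, THI5 the pyrimidine synthase and THI2 a transcriptional activator of the pathway, while PHO3 is the phosphatase that frees thiamine for uptake. Of all features 18.1% were called, 7.69% higher and 10.4% lower, against 4 of the 10 thiamine genes, 3 higher and 1 lower. The median change was 0.83 over the 10 genes and 0.04 over all features, and 8 of the 10 estimates were above 0. With the ethanol arrays set against the pool alone, THI4, THI5, THI2 and PHO3 were at 1.69, 1.43, 2.15 and −2.52. In that fit THI20, THI21, THI22, THI6, THI7 and THI3 were at 0.15, 0.01, 0.37, 0.38, 0.37 and 0.77, and the median of all features was 0.03. The 0% ethanol arrays of THI20 averaged −0.74, so most of its change lay in those arrays. With 6.5% ethanol culture 2 left out, and likewise with culture 3 left out, none of the 10 was called by limma (4 and 5 of them had an unadjusted p below 0.05), and over all features only 2 and 51 calls were left.

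**Figure D1:**
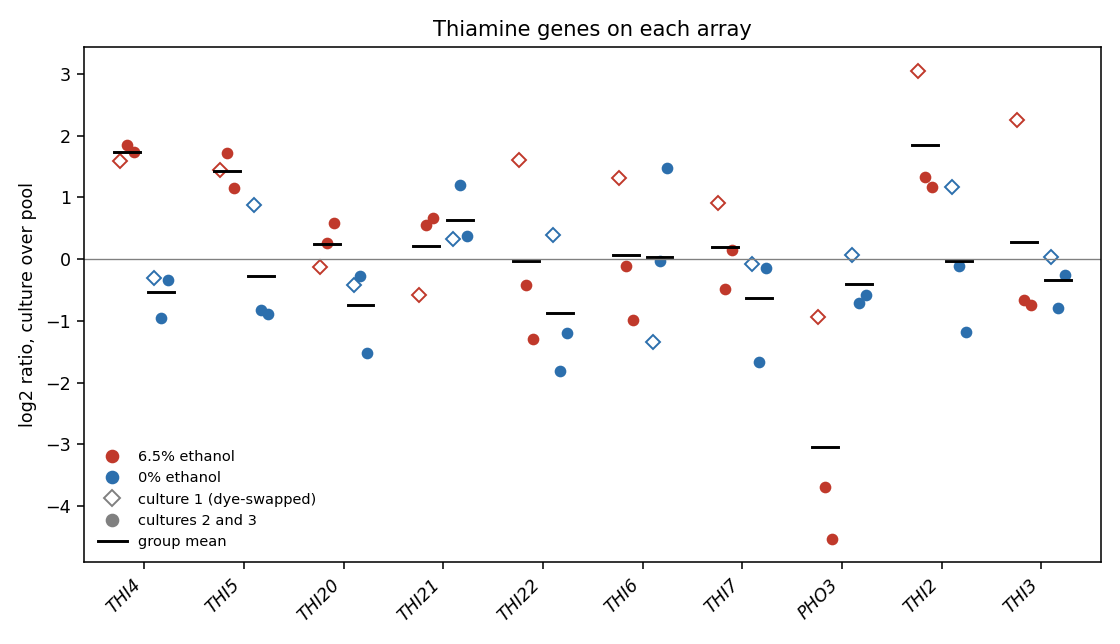
Log2 ratio of culture over pool (vertical axis) for each thiamine gene, with the 6.5% ethanol arrays in red left of the 0% ethanol arrays in blue. Open diamonds are the dye-swapped culture 1, filled circles cultures 2 and 3, and black lines the group means (n = 3). THI4 is near the same level on all 3 ethanol arrays, between 1.59 and 1.85, while PHO3 spreads from −4.53 to −0.93.

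THI4 makes the thiazole ring, in a reaction in which each enzyme molecule gives up sulfur of its own and works only once. It read 1.59, 1.85 and 1.74 in the 6.5% ethanol cultures 1, 2 and 3, against −0.30, −0.95 and −0.35 in the 0% ethanol cultures. All 3 ethanol arrays lay above all 3 arrays without ethanol, with less spread among the ethanol arrays (SD 0.13) than among those without (SD 0.36). THI4 rose by 2.26 ± 0.29 (SE), or 4.78-fold (95% interval 2.98 to 7.67-fold, limma adjusted p = 0.00803), which ranked 59 among the increases of 6345 features. The dye term of THI4 was −0.04, and the ethanol difference was 1.89 for the dye-swapped culture 1 and 2.44 for cultures 2 and 3. Its adjusted p was 0.0594 without 6.5% ethanol culture 2 and 0.0546 without culture 3, with changes of 2.17 and 2.24.

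The pyrimidine ring is made by THI5 and its relatives from histidine and pyridoxal phosphate, a form of vitamin B6. THI5 read 1.44, 1.72 and 1.14 with 6.5% ethanol, against 0.87, −0.82 and −0.88 with 0% ethanol. The groups did not overlap, but the dye-swapped array without ethanol came close to the lowest ethanol array. THI5 rose by 1.71 ± 0.41, or 3.27-fold (95% interval 1.68 to 6.40-fold, limma adjusted p = 0.0326). This call was less steady than that of THI4. It was lost with the replicate number as a block (adjusted p = 0.0616), once a trend along the probe number of the array was removed (1.55, adjusted p = 0.0559), and without culture 2 or 3 of either group (adjusted p from 0.0847 to 0.133). Nor was THI5 called in a fit with no dye term (adjusted p = 0.163), at 1.12 with arrays of equal spread (adjusted p = 0.292) or at 1.35 with quantile-normalized arrays (adjusted p = 0.165).

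THI5 belongs to a family of near-identical genes with THI11, THI12 and THI13, and a probe of any of them may also bind transcripts of the others. The 4 values are therefore uncertain as values of single genes and are not independent of each other. THI12 read 1.57, 1.77 and 1.23 with 6.5% ethanol, against 0.27, −1.42 and −0.34 with 0% ethanol, and rose by 2.02 ± 0.40 (limma adjusted p = 0.0209). THI13 rose by 1.62 ± 0.25 (limma adjusted p = 0.0111). Its ethanol arrays read 2.00, 0.57 and 0.36 against 0.62, −1.34 and −1.22 without ethanol, so that the groups overlapped before the dye term was taken into account. THI11 was at 1.17 ± 0.38 and was not called (limma adjusted p = 0.0772). All 4 probes had estimates above 1 in this fit, and 3 of the 4 were called higher, against 7.69% of all features. As the probes may share signal, this is not a count of separate genes. THI12 lost its call with no dye term, equal spread and quantile normalization (adjusted p = 0.0969, 0.0876 and 0.0682). THI13 lost its call in the same 3 fits (adjusted p = 0.293, 0.134 and 0.0791). THI11 was at 0.95 with arrays of equal spread, and at 1.66 with a call without culture 1 of either group (adjusted p = 0.0244).

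**Figure D2:**
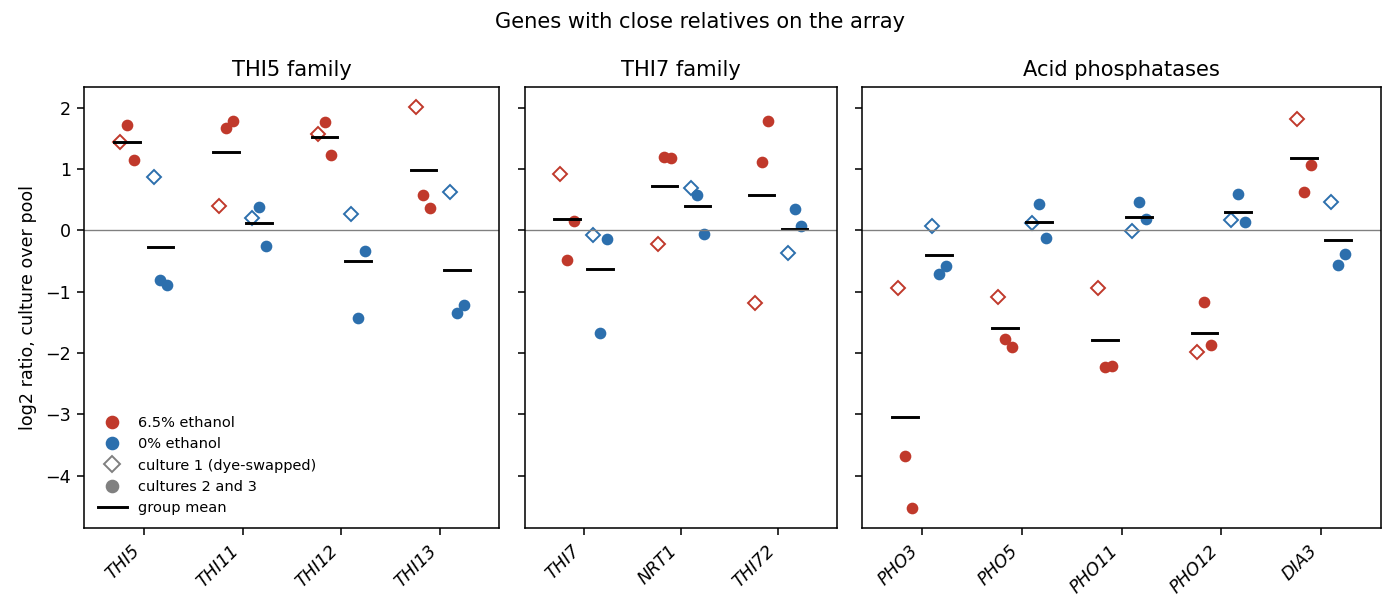
Log2 ratio of culture over pool (vertical axis, shared by the 3 panels) for thiamine genes with close relatives on the array, 6.5% ethanol in red left of 0% ethanol in blue. Open diamonds are the dye-swapped culture 1, filled circles cultures 2 and 3, and black lines the means (n = 3). All ethanol arrays of PHO3, PHO5, PHO11 and PHO12 lie below all arrays without ethanol, and those of DIA3 above.

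The pyrimidine precursor is then phosphorylated by the kinases Thi20 and Thi21, while the related THI22 is not required for thiamine synthesis. These 3 genes are related in sequence, and none was called. THI20 read −0.12, 0.26 and 0.58 with 6.5% ethanol, against −0.41, −0.28 and −1.52 with 0% ethanol. Its groups did not overlap, and its change of 0.97 ± 0.41 had a 95% interval of 0.00 to 1.95 (limma adjusted p = 0.141). THI21 was at −0.42 ± 0.33 (95% interval −1.20 to 0.35, limma adjusted p = 0.391), with the lowest value, −0.59, on the dye-swapped ethanol array and the other ethanol arrays at 0.55 and 0.66. With the probe-number trend removed THI21 was at 0.01. THI22 was at 0.84 ± 0.35 (95% interval 0.01 to 1.67, limma adjusted p = 0.138), and its dye term of −1.09 was larger than its ethanol change. All 3 intervals include changes of more than 2-fold.

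THI6 joins the thiazole and pyrimidine rings to thiamine phosphate. It read 1.31, −0.12 and −0.99 with 6.5% ethanol, against −1.35, −0.04 and 1.47 with 0% ethanol. The groups overlapped over nearly their whole range, and THI6 had the widest interval of the 10 genes, 0.04 ± 0.84 (95% interval −1.95 to 2.03, limma adjusted p = 0.978). That interval spans changes from 3.87-fold lower to 4.09-fold higher, so these arrays do not exclude a difference of THI6 within it.

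Uptake is served by THI7, the thiamine transporter of the plasma membrane. THI7 read 0.91, −0.49 and 0.15 with 6.5% ethanol, against −0.08, −1.67 and −0.15 with 0% ethanol. The groups overlapped, and the change of 0.82 ± 0.44 was not called (95% interval −0.21 to 1.86, limma adjusted p = 0.225). Its relatives NRT1 and THI72 were at 0.32 ± 0.43 and 0.56 ± 0.47, also without a call (limma adjusted p = 0.634 and 0.426). For THI72 the ethanol arrays of cultures 2 and 3 read 1.12 and 1.79 and that of the dye-swapped culture 1 read −1.18. The 95% intervals were −0.70 to 1.34 for NRT1 and −0.55 to 1.67 for THI72. Against the pool alone NRT1 was at 0.48 with a call (limma adjusted p = 0.0451), a fit that leaves out the spread of the 0% ethanol arrays. Its dye term also takes up the disagreement of the ethanol arrays, which read −0.23 for culture 1 and 1.20 and 1.18 for cultures 2 and 3. Thus none of the 3 transporter genes was called in the main fit, and these arrays do not exclude changes within their intervals.

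PHO3 codes for the acid phosphatase that releases thiamine from its phosphates outside the cell, and its change was the largest of the 10 estimates. It read −0.93, −3.68 and −4.53 with 6.5% ethanol, against 0.07, −0.71 and −0.57 with 0% ethanol. All ethanol arrays lay below all arrays without ethanol, but by unequal amounts: cultures 2 and 3 differed by −3.46 on average, and the dye-swapped ethanol array, at −0.93, was nearest to the arrays without ethanol. With the probe-number trend removed the ethanol arrays read −2.21, −3.17 and −4.04, against −0.27, 0.05 and 0.19, so the dye-swapped array was less far from the others. PHO3 fell by 2.64 ± 0.54, a 6.24-fold lower level (95% interval 2.58 to 15.1-fold, limma adjusted p = 0.0216), which ranked 26 among the decreases. Its call was lost without culture 2 or 3 of either group, with changes from −2.65 to −2.17 and adjusted p from 0.0610 to 0.0970. Nor was PHO3 called in a fit with no dye term (adjusted p = 0.194) or at −2.27 with arrays of equal spread (adjusted p = 0.0557).

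PHO3 lies next to PHO5 on its chromosome, and both are related in sequence to PHO11 and PHO12, so their probes may share signal. PHO5, PHO11 and PHO12 are acid phosphatases that are induced by phosphate starvation rather than by lack of thiamine. PHO5 read −1.09, −1.77 and −1.90 with 6.5% ethanol, against 0.11, 0.43 and −0.12 with 0% ethanol, and fell by 1.73 ± 0.30 (limma adjusted p = 0.0146). PHO11 and PHO12 fell by 2.01 ± 0.38 and 1.98 ± 0.30 (limma adjusted p = 0.0175 and 0.0111). DIA3, a further relative linked to invasive growth, rose by 1.33 ± 0.25 (limma adjusted p = 0.0182), but it was not called at 0.90 with the probe-number trend removed (adjusted p = 0.0679) or at 0.98 with quantile-normalized arrays (adjusted p = 0.0958). PHO3 and the 3 phosphate-starvation genes all fell, where 10.4% of all features were called lower. Whether signal shared between the probes contributed to it was not tested.

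Of the regulators, THI2 codes for a zinc cluster protein that activates THI genes. It read 3.05, 1.33 and 1.16 with 6.5% ethanol, against 1.16, −0.11 and −1.17 with 0% ethanol. In each group the dye-swapped array read highest, and the lowest ethanol array was level with the highest array without ethanol. Within both orientations the ethanol difference was 1.88, and THI2 rose by 1.88 ± 0.33 or 3.69-fold (95% interval 2.13 to 6.38-fold, limma adjusted p = 0.0153). Because the orientations agreed in the difference but not in the level, the call needs the dye term: without it the adjusted p was 0.265. With the probe-number trend removed the groups no longer overlapped, at 1.86, 1.80 and 1.60 against 0.85, 0.61 and −0.46, and THI2 rose by 1.42 ± 0.35 (limma adjusted p = 0.0431). With the replicate block as well this call was lost (adjusted p = 0.0597). Scaling the arrays to equal spread gave 1.06 without a call (adjusted p = 0.265), and the call was also lost after quantile normalization (1.49, adjusted p = 0.0738) and without 6.5% ethanol culture 2 or 3 (adjusted p = 0.0860 and 0.0754).

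THI3, which is related to pyruvate decarboxylase and acts as the thiamine sensor, read 2.25, −0.67 and −0.75 with 6.5% ethanol, against 0.03, −0.80 and −0.26 with 0% ethanol. The dye-swapped ethanol array alone was high, and cultures 2 and 3 differed by −0.18. THI3 was at 0.62 ± 0.51 and was not called (95% interval −0.58 to 1.83, limma adjusted p = 0.418). The ethanol arrays set against the pool alone gave 0.77 with a call (limma adjusted p = 0.0125), a fit that leaves out the spread of the 0% ethanol arrays. In that fit culture 1 weighs as much as cultures 2 and 3 together, and the dye term takes up their disagreement. The positive value therefore rests on culture 1, at 2.25. PDC2, the third regulator, was at −0.17 ± 0.28 (limma adjusted p = 0.689). Of the 3 regulators of the THI genes only THI2 was called, and the differences between the regulators were not tested.

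**Figure D3:**
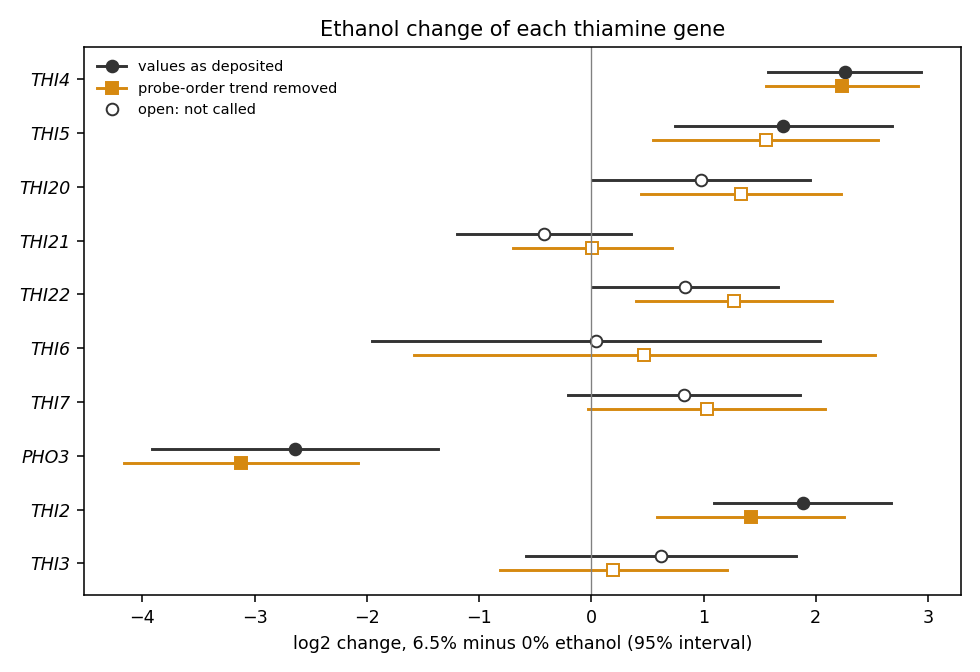
Log2 change (6.5% minus 0% ethanol, horizontal axis) of each thiamine gene with its 95% interval from limma (n = 3 arrays per group), from the values as deposited (black circles) and with the probe-number trend removed (orange squares). Filled symbols are called at an adjusted p below 0.05. As deposited THI4, THI5, PHO3 and THI2 are called, and with the trend removed THI4, PHO3 and THI2.

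The mean trend along the probe number differed between the groups, and the trend touched genes by where their probes lie in the list. For the genes listed here the probe number follows the systematic gene name, and so runs chromosome by chromosome. Averaged over a group, after culture 1 was multiplied by −1, the trend at these genes was larger without ethanol. At PHO3 it averaged −0.39 on the 0% ethanol arrays and 0.09 on the ethanol arrays, and at THI22 0.34 and −0.10. On single arrays it was not always larger without ethanol. Its removal took PHO3 from −0.93 to −2.21 on 6.5% ethanol culture 1, and from −3.68 to −3.17 and −4.53 to −4.04 on cultures 2 and 3. These opposite shifts offset each other in the ethanol mean. The source of the trend was not tested. With it removed 13.2% of all features were called, 5.91% higher and 7.31% lower, against 2 thiamine genes higher and 1 lower, and the median of the 10 genes was 1.15. The estimate moved up for the genes with high probe numbers: THI20 to 1.34 (adjusted p = 0.0605), THI22 to 1.27 (adjusted p = 0.0651) and THI6 to 0.47. It moved down for THI2 and PHO3, which have low probe numbers, PHO3 reaching −3.12 (adjusted p = 0.0118). THI4 stayed at 2.23 (adjusted p = 0.00993). The arrays did not overlap between groups for 4 of the 10 genes as deposited, where 25.3% of all features did not overlap, and for 5 with the trend removed, where 27.2% did not.

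**Figure D4:**
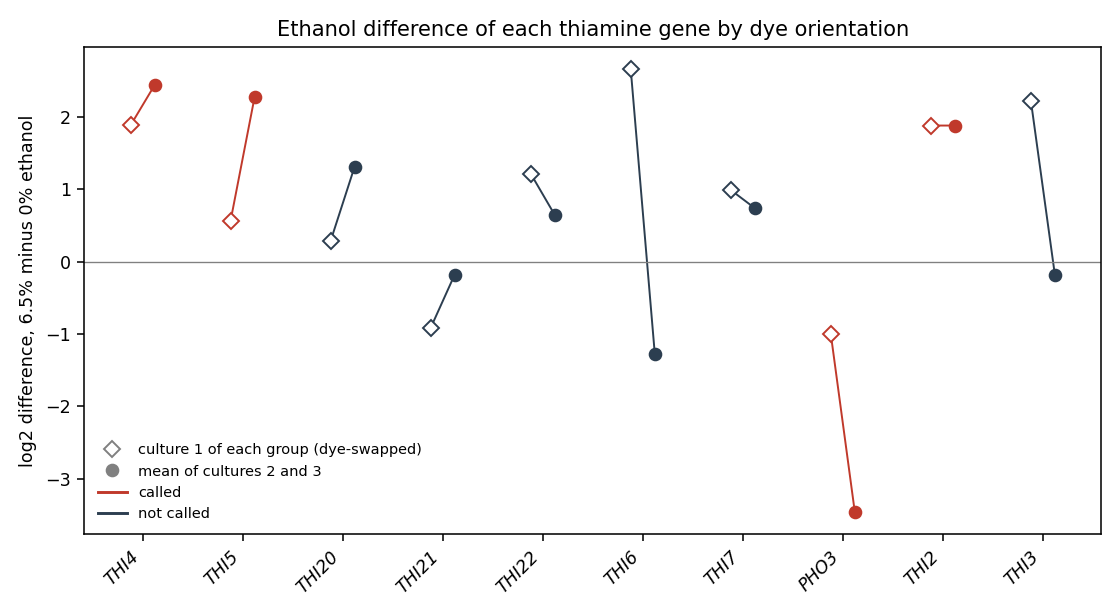
Log2 difference between 6.5% and 0% ethanol (vertical axis) of each thiamine gene within the dye-swapped pair of arrays (culture 1, open diamonds) and within the other orientation (mean of cultures 2 and 3, filled circles). Called genes are red. THI2 has the same difference in both, and THI6 differs most, with 2.66 and −1.27.

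The orientations gave estimates of the same sign for 8 of the 10 genes, the exceptions being THI6 and THI3. The difference of THI6 was 2.66 for culture 1 and −1.27 for cultures 2 and 3, and that of THI3 was 2.23 and −0.18. Across all features the differences of both orientations correlated at r = 0.42. A test of whether the ethanol change itself depended on orientation, added after these values were seen, called none of the 10 genes and 30 of all features (limma, 0.473% of 6345, lowest adjusted p of the 10 genes 0.152). That fit has only 1 swapped array per group and 2 residual degrees of freedom, so it could show only very large differences.

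**Figure D5:**
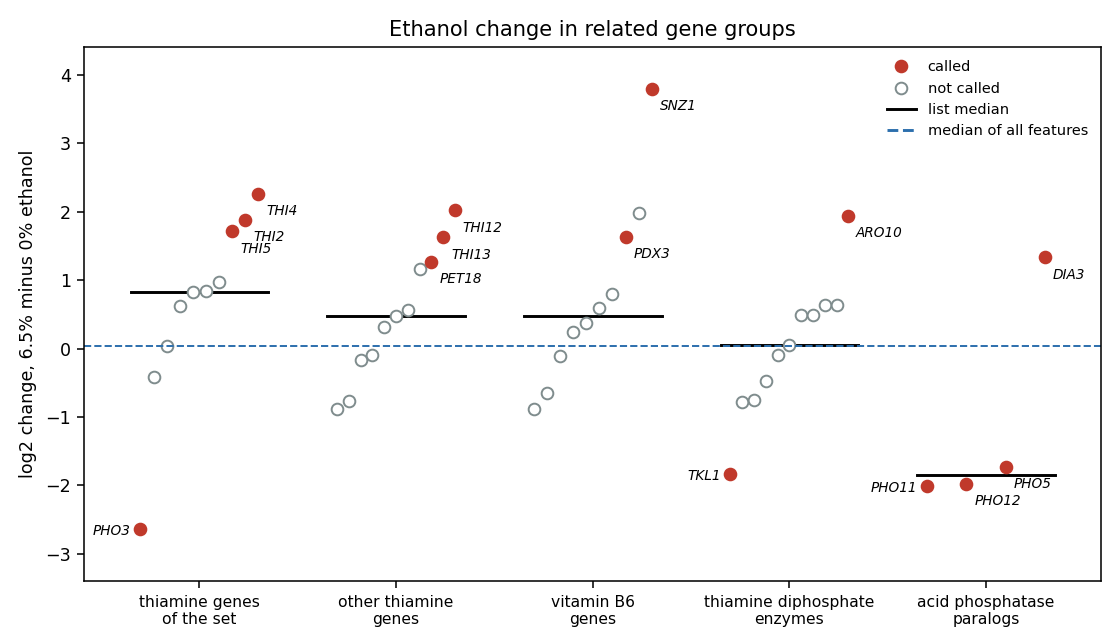
Log2 change (6.5% minus 0% ethanol, vertical axis) of every measured gene in 5 groups, sorted within each group. Red filled points are called and named, open points are not called, black lines are group medians and the dashed line is the median of all features (0.04). The called thiamine genes are above the median of their group with the exception of PHO3.

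Outside the 10 genes, 11 further thiamine genes were measured, and 3 rose and none fell (7.69% and 10.4% of all features), with a median of 0.48. Besides THI12 and THI13 the third was PET18, whose sequence resembles thiamine-degrading enzymes, at 1.26 ± 0.30 (limma adjusted p = 0.0338). PET18 was called neither with the replicate block (adjusted p = 0.0676) nor with the trend removed (0.82, adjusted p = 0.187). THI80, which makes the active cofactor from thiamine, was at −0.88 ± 0.39 (limma adjusted p = 0.156), and TPC1, the mitochondrial carrier of the cofactor, at −0.76 ± 0.27 (limma adjusted p = 0.0983). Neither was called, and for TPC1 all 3 ethanol arrays lay below all 3 arrays without ethanol. With 6.5% ethanol culture 2 or 3 left out limma called no gene of this group, of the enzymes and vitamin B6 genes below or of the acid phosphatases above. With 0% ethanol culture 2 left out PET18, TKL1, PDX3, PHO11 and DIA3 were not called, and with 0% ethanol culture 3 left out PET18, TKL1, PDX3 and PHO11 were not.

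Among 11 genes of enzymes that use thiamine diphosphate 1 rose and 1 fell, against 7.69% and 10.4% of all features, with a median of 0.05. The 2 calls of 11 are close to the 18.1% called over all features. ARO10, a decarboxylase of the breakdown of aromatic amino acids, read 1.84, 1.91 and 2.32 with 6.5% ethanol, against 0.37, −0.47 and 0.34 with 0% ethanol. It rose by 1.94 ± 0.33 (limma adjusted p = 0.0143). TKL1, the main transketolase of the pentose phosphate pathway, read −0.93, −0.64 and −1.51 with 6.5% ethanol, against 0.01, 1.01 and 1.41 with 0% ethanol. It fell by 1.84 ± 0.40 (limma adjusted p = 0.0255), a call that was lost with the replicate block (adjusted p = 0.0525) and with the trend removed (−1.40, adjusted p = 0.0695). PXP1, a peroxisomal protein resembling such enzymes, was at −0.79 ± 0.26 (limma adjusted p = 0.0818) but fell by 1.05 once the probe-number trend was taken out (adjusted p = 0.0387). The pyruvate decarboxylase genes PDC1, PDC5 and PDC6 were at −0.75, 0.64 and 0.49 and were not called. For PDC1 and PDC5 the arrays did not overlap between groups, PDC1 being lower and PDC5 higher on all ethanol arrays. The same lack of overlap held for 6 of the 11 enzyme genes and for 25.3% of all features. With the probe-number trend removed the groups overlapped for both PDC1 and PDC5.

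Vitamin B6 supplies the pyrimidine branch, and 2 of its 10 genes rose and none fell, against 7.69% and 10.4% of all features. SNZ1, a subunit of pyridoxal phosphate synthase, rose by 3.79 ± 0.65 (limma adjusted p = 0.0146). Without 0% ethanol culture 2, which read −3.31, the change of SNZ1 was 2.98, and against the pool alone it was 2.47. SNZ1 was not called in a fit with no dye term (adjusted p = 0.0843) or at 3.09 with arrays of equal spread (adjusted p = 0.0557). PDX3, the oxidase that makes pyridoxal phosphate, rose by 1.63 ± 0.33 (limma adjusted p = 0.0215), or 1.14 without a call with the trend removed (adjusted p = 0.0919). SNZ2 and SNZ3, which lie beside members of the THI5 family, were at −0.11 ± 0.49 and 0.59 ± 0.61, without a call (limma adjusted p = 0.894 and 0.533). SNZ3 read 2.76 on the dye-swapped ethanol array and −1.35 and −1.18 on the others.

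The genes whose 6 array values lay nearest to those of each called thiamine gene, by Euclidean distance over the 6 arrays, were named as a description of likeness. The distance scales with the size of the values, so each is given beside the median distance of a named gene to the same thiamine gene. For THI4, with a median of 3.61, these were DOG2, a phosphatase of 2-deoxyglucose phosphate, at a distance of 0.61, YBR085C-A at 0.64 and HIS5, an enzyme of histidine synthesis, at 0.73. They changed by 1.91, 2.15 and 2.42. For THI5, with a median of 3.37, they were SCS22 (0.62), YEL073C (0.67) and SDS24 (0.75). For THI2, with a median of 4.23, they were the stress-inducible Hsp70 gene SSA3 (0.76), the vacuolar transporter gene RTC2 (1.18) and SPR28 (1.31), a septin gene of sporulation. For PHO3, with a median of 6.25, they were AAH1, adenine deaminase, at 1.19, BSC1 at 1.67 and MKC7 at 1.81. The nearest gene lay at 0.17 of the median for THI4, 0.18 for THI5 and for THI2 and 0.19 for PHO3. These genes share the arrays, and so any dye and array effect, with the thiamine genes.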

How the data were processed

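The authors deposited a single table of log2 ratios, 1 value for each of 6368 probes on each of 6 arrays. Its log2 scale was read from the values, which are bounded at 6.64, the log2 of a ratio of 100. None of the thiamine genes was at that limit. Neither the labels nor the table say how the arrays were scanned, background-corrected or normalized, or which channel is the numerator. Per the labels, culture 1 of each group was dye-swapped, and these arrays were multiplied by −1. Symbols came from the platform annotation, with current names looked up by Entrez identifier in RefSeq (assembly R64). Of the probes 5673 had 1 gene and 695 had none, and the probes of the 23 genes with several were averaged. No sequence was used here.

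limma 3.58.1 under R 4.3.3 fitted the contrast 6.5% minus 0% ethanol (lmFit, eBayes) on all 6345 features with a dye term, leaving 3 residual degrees of freedom. The limma model with the dye term was tested on simulated data. The averaging of probes, the removal of the trend and the other alternatives were not part of that test. The members and gene lists were chosen with earlier results of these data known. Genes named were the 10 members, called genes of the lists, 6 relatives of members whatever their values, and 3 nearest genes for each called member. Other genes named were chosen after their values were seen.

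Alternatives were no dye term, a loess trend on probe number removed (span 0.3), equal spread, quantile normalization, the pool alone, the replicate number as a block, no bounded features, single probes, and each array left out. Same-numbered cultures of both groups deviated together from their group means (r = 0.70, 0.48 and 0.43 across features), so the fit with the block is given wherever it ends a call. The fit reported has the dye term and no block. Number 1 marks the dye swap in both groups, and the difference between cultures 2 and 3 did not correlate between groups (r = −0.04).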

Additional observations from a re-analysis of the deposited data

How the results depend on the processing

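No called gene that was followed over the alternatives changed sign. Of the thiamine genes THI4 kept its call in 13 of 15 alternatives, THI2 and PHO3 in 9 each and THI5 in 5. Over all features 1150 calls became 78 with no dye term, 303 with arrays scaled to equal spread, 484 after quantile normalization, 2542 against the pool alone, 607 with the replicate block and 423 with the block and the trend removed, and 2 to 1253 with 1 array left out. The count of thiamine genes that rose (3) was 1 with no dye term, after scaling, after quantile normalization and with the block and trend removed, 4 against the pool alone, and 0 to 3 with 1 array left out. The count that fell (1) was 0 without the dye term and after scaling, and 0 to 1 with 1 array left out. Of the other thiamine genes 3 calls became 0 with no dye term, after scaling and after quantile normalization, 6 against the pool alone and 1 with block and trend, with 0 to 4 by leaving out an array. For vitamin B6 genes 2 became 0 without the dye term and after scaling, 1 after quantile normalization, with the trend removed and with block and trend, 7 against the pool alone, and 0 to 3 by leaving out an array. For the cofactor's enzymes 2 became 0 with no dye term, after scaling and after quantile normalization, 4 against the pool alone, 1 with the replicate block and with block and trend, and 0 to 2 by leaving out an array. The 4 acid phosphatase relatives became 0 without the dye term, 2 after scaling, and 0 to 4 by leaving out an array. Where limma called no gene of a list in either direction, between 1 and 5 of the list's genes had an unadjusted p below 0.05. Of the called genes followed, the replicate block ended those of THI5, PET18, TKL1, SDS24, BSC1, YPL216W and YBR090C and no other. The cause of these differences was not tested. Signal over background is unknown, so that dim probes could not be told from bright ones.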

Other observations

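Among the nearest 2 genes on each side of the thiamine genes, in the order of the R64 annotation, 32 were measured and 7 were called (21.9%), close to the 18.1% of all features. AAD6 beside THI5 and YBR090C near PHO3 were higher with ethanol, by 2.54 ± 0.33 and 1.56 ± 0.39 (limma adjusted p = 0.00803 and 0.0365). ENP2 beside THI4, CTR1 near THI22, RPL13A near THI3, YPL216W near THI6 and PHO5 beside PHO3 were lower, at −1.57, −2.09, −1.37, −1.33 and −1.73.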
